A study of Mus musculus with 12 samples.

Results

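The transcripts of 9 HECT-domain ubiquitin ligases related to Ube3a were followed in the mouse ventral hippocampus: Ube3b, Ube3c, Nedd4, Nedd4l, Itch, Wwp1, Wwp2, Huwe1 and Herc1. They were chosen by name from the 13951 genes of the deposited table, and all 9 were present and passed the filter on low values. The samples came from 12 C57BL/6J mice, whose right hippocampus gave polyadenylated RNA from its ventral portion. The mice were aged 12 to 16 weeks, with 1 library each. Each sex had 3 wild-type mice (WT) and 3 mice labelled Angelman syndrome (AS). The labels name no allele, agent or treatment. The mutation that defines the AS mice is therefore unknown here, as is the parent it came from.

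HECT ligases carry a C-terminal catalytic domain whose active-site cysteine takes ubiquitin from an E2 enzyme as a thioester and then passes it to the substrate. UBE3A, also called E6AP, is the founding member, and loss of its maternal copy in neurons causes Angelman syndrome. Because the catalytic step is shared, the related ligases are the candidates a reader would inspect for a transcript response to a UBE3A defect. They differ in how they find substrates: NEDD4, NEDD4L, ITCH, WWP1 and WWP2 share a C2 domain and WW domains that bind proline-rich PY motifs, whereas HUWE1 and HERC1 are giant proteins built around other interaction domains.

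The genes lie on separate chromosomes for the most part (GRCm38). Ube3b lies on chromosome 5 at 114380607 to 114421169 (plus strand), and Ube3c on the same chromosome at 29569242 to 29676092 (plus). Nedd4 (chromosome 9, 72662346 to 72749852, plus) and Herc1 (chromosome 9, 66350450 to 66508775, plus) also share a chromosome. Nedd4l is on chromosome 18, Itch on 2, Wwp1 on 4, Wwp2 on 8 and Huwe1 on X (151800807 to 151935417, plus). Ube3a itself is on chromosome 7 at 59228750 to 59311536 (plus). Huwe1 and Herc1 have by far the longest transcripts of the set, with 83 and 78 exons and 14.58 and 15.15 kb in the transcript with the longest coding sequence, against 3.03 to 6.44 kb for the other 7 members. Values cover whole genes, so isoforms are not separated. The labels do not state that reads were assigned by strand, and Wwp1, Nedd4l, Itch, Wwp2, Herc1 and Ube3a are each overlapped by at least 1 annotated gene on the opposite strand, which for Ube3a includes the long noncoding RNA Snhg14.

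Some libraries stood apart from the rest of their group. On the log2(abundance + 1) scale used throughout, 17 choroid plexus markers averaged 1.21 to 1.70 in 8 libraries. They averaged 4.30 and 5.26 in replicates 1 and 2 of the WT females, 5.04 in replicate 2 of the AS females and 3.02 in replicate 2 of the AS males. The first of these WT females also had Xist at 0.35, against 6.00 to 6.44 in the other 5 female libraries and 0.17 to 0.52 in males. Its mean of 4 Y-linked genes was 0.68, within the 0.24 to 0.93 of the females and below the 3.86 to 4.19 of the males, and its label was kept in every comparison. Markers of the labelled tissue were present in every library, with CA1 pyramidal means of 4.89 to 5.27, CA3 means of 3.69 to 4.21 and dentate granule means of 3.20 to 3.94. Between genotypes, the mean of 8 interneuron markers was 5.37 to 5.46 in AS against 5.51 to 5.77 in WT females, and at most 5.55 in AS against 5.63 to 5.72 in WT males. Over both sexes all 8 markers were lower in AS mice, where 52.7% of all genes were higher. Of the 8, 3 had an unadjusted p under 0.05 (limma), against 2.58% of all genes lower and 5.35% in either direction. At an adjusted p under 0.05 it was 0 of 8 (limma, lowest adjusted p = 0.723). Within a sex, 1 of 8 in females and 4 of 8 in males had an unadjusted p under 0.05 (limma), all lower in AS mice. The shares of all genes in either direction were 3.16% and 6.42%. Over both sexes 0 of 8 separated the genotypes without overlap, against 0.361% of all genes. Wholly lower in AS mice were 5 of 8 in females and 1 of 8 in males, against 4.02% and 5.18% of all genes. In each sex 1 of 8 had a higher mean in AS mice, but 0 were wholly higher, against 4.99% of all genes in females and 6.02% in males. The part of these markers in the results below was not tested. In bulk tissue, fewer cells of a type and less RNA per cell cannot be told apart.

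These 3 promoters are shown because Huwe1 and Herc1 varied together from mouse to mouse, and Ube3b against them, as described further on. Each is the 250 bases before the RefSeq start on GRCm38.p6, plus strand. The gene spans given above are from GENCODE M21. By those spans the Huwe1 window lies inside the gene, and the Ube3b window ends just past the gene start. Capitals mark matches on either strand to GGGCGG (GC box), CCGGAAG (ETS core) and the CGCG element.
Huwe1, chrX:151803032-151803281: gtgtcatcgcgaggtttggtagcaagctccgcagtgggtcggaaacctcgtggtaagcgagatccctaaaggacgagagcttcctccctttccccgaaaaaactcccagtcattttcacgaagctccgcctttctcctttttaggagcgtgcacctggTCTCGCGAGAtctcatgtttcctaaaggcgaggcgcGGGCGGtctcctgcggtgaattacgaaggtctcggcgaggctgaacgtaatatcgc
Herc1, chr9:66350200-66350449: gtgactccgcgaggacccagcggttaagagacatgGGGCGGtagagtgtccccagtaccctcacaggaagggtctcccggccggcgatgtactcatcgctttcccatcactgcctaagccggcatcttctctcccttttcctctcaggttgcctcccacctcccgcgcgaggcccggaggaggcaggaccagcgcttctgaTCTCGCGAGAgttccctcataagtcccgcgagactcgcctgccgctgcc
Ube3b, chr5:114380370-114380619: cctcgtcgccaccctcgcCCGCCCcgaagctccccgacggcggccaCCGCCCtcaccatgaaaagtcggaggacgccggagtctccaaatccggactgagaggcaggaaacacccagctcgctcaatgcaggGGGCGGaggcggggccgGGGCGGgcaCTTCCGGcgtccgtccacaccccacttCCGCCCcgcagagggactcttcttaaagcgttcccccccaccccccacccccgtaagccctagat

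These windows are rich in G and C, at 55.6% for Huwe1, 63.6% for Herc1 and 69.6% for Ube3b, against a median of 52.4% over 32851 RefSeq promoters cut to the same length. The CGCG element occurred 1 time each in Huwe1 and Herc1 and not in Ube3b; 0.4% of all promoters hold it, and among the 7 promoters found for the members and Ube3a these were the only 2 with a match. The GC box, which 32.7% of promoters hold, matched 1 time in Huwe1, 1 time in Herc1 and 5 times in Ube3b. Ube3b also had a match to the ETS core, found in 6.9% of promoters. None of the windows matched the NRF1 motif, TGACGTCA (cAMP response element), CACGTG (E-box), CCAAT or TATAAA. The CGCG element does not overlap the other motifs, and it was added to the search after the sequences had been read. A match is a description of these letters, not evidence of a bound site.

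Nedd4 was the most abundant HECT transcript in this tissue. Its product ubiquitinates surface receptors, among them the AMPA receptor subunit GluA1, and is needed for dendrite growth. Averaged over the 12 libraries, and per transcript length, Nedd4 stood at 142.3 abundance units (131.5 to 158.6), Huwe1 at 56.9, Herc1 at 35.1, Ube3c at 27.7, Ube3b at 25.2, Nedd4l at 20.1, Itch at 19.7, Wwp2 at 10.6 and Wwp1 at 8.6. Ube3a, at 16.5 (12.7 to 19.3), came below 7 of the 9 members. The order held in all 12 libraries from Nedd4 to Huwe1 to Herc1 to Ube3c, from Ube3b to Nedd4l and from Itch through Ube3a to Wwp2. Ube3c exceeded Ube3b in 11 libraries and Wwp2 exceeded Wwp1 in 11. Nedd4l and Itch were not separated, since Nedd4l was higher in only 7 of 12.

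**Figure D1:**
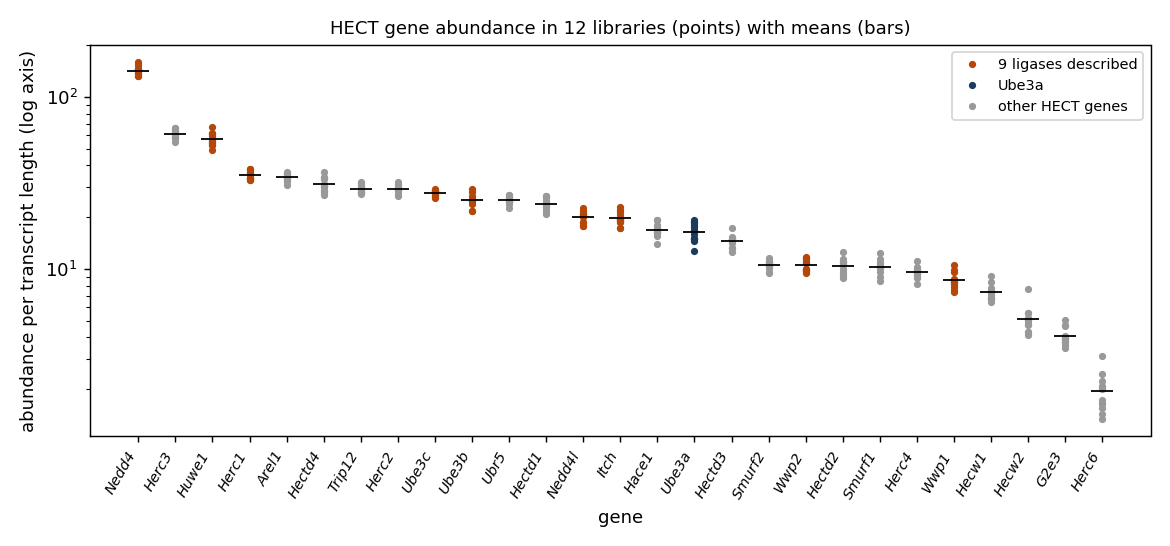
Abundance per transcript length (log axis) of the 9 ligases, Ube3a and 17 other HECT genes, with points for the 12 libraries and bars for means. Nedd4 leads at a mean of 142.3 and Herc6 is lowest at 1.9, with Ube3a at 16.5.

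Most members varied less between mice of the same group than the median gene. The SD within groups was 0.05 for Ube3c, 0.06 for Nedd4, 0.09 for Herc1, 0.095 for Wwp2 and 0.10 for Huwe1 on the log2 scale, against a median of 0.14 over all genes tested. Ube3c, whose product lengthens ubiquitin chains at the proteasome, was steadier than all but 2.3% of genes. Ube3b (0.107) and Nedd4l (0.108) were also below the median, Itch (0.136) was beside it, and Wwp1 (0.16) and Ube3a (0.18) were above it. Genes of like abundance were not compared separately.

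Ube3a, the gene named by the disease, was read first in each library. It was 4.34, 4.09 and 4.30 in WT females, 4.16, 4.25 and 3.95 in AS females, 4.02, 3.99 and 4.21 in WT males, and 3.78, 4.31 and 3.99 in AS males. Genotypes overlapped in both sexes, and AS male replicates 1 and 2 hold the lowest and nearly the highest value of the series. A whole-gene transcript level does not check the labels, because the allele is unnamed and RNA of a mutated gene may still be made.

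No ligase of the 9 differed between AS and WT mice past the threshold in females, in males or over both sexes. The test was limma over 13858 genes, with p-values adjusted by Benjamini-Hochberg and called under 0.05. That threshold called 0% of all genes in each of these comparisons. At an unadjusted p under 0.05 it was also 0 of 9 members in females, in males and over both sexes, where 3.16%, 6.42% and 5.35% of all genes passed. That count is less settled, since leaving out 1 library gave up to 2 members in females and up to 1 in males and over both sexes. In females 5 members were higher and 4 lower in AS mice, where 51.6% of all genes were higher, and in males 3 were higher and 6 lower, where 52.4% of all genes were higher. Over both sexes 5 were higher and 4 lower, where 52.7% of all genes were higher, and the members' median log2 difference was 0.01, as it was over all genes. No member separated AS from WT females without overlap, as 9.01% of genes did (4.99% higher, 4.02% lower). In males 2 members did, against 11.2% of genes, and over all 12 mice none did, against 0.361% of genes. For the interaction of genotype and sex, 0 members were called and 0 had an unadjusted p under 0.05, against 0% and 3.77% of genes, and 5 of 9 were above 0, as were 50.5% of genes. The 95% intervals of the 9 genotype differences over both sexes lay between -0.23 and 0.25 on the log2 scale, which is -14.9% to 18.65% in abundance + 1. Within a sex they were wider, between -0.32 and 0.35 in females and between -0.38 and 0.34 in males. These intervals are each member's own, not adjusted over members.

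**Figure D2:**
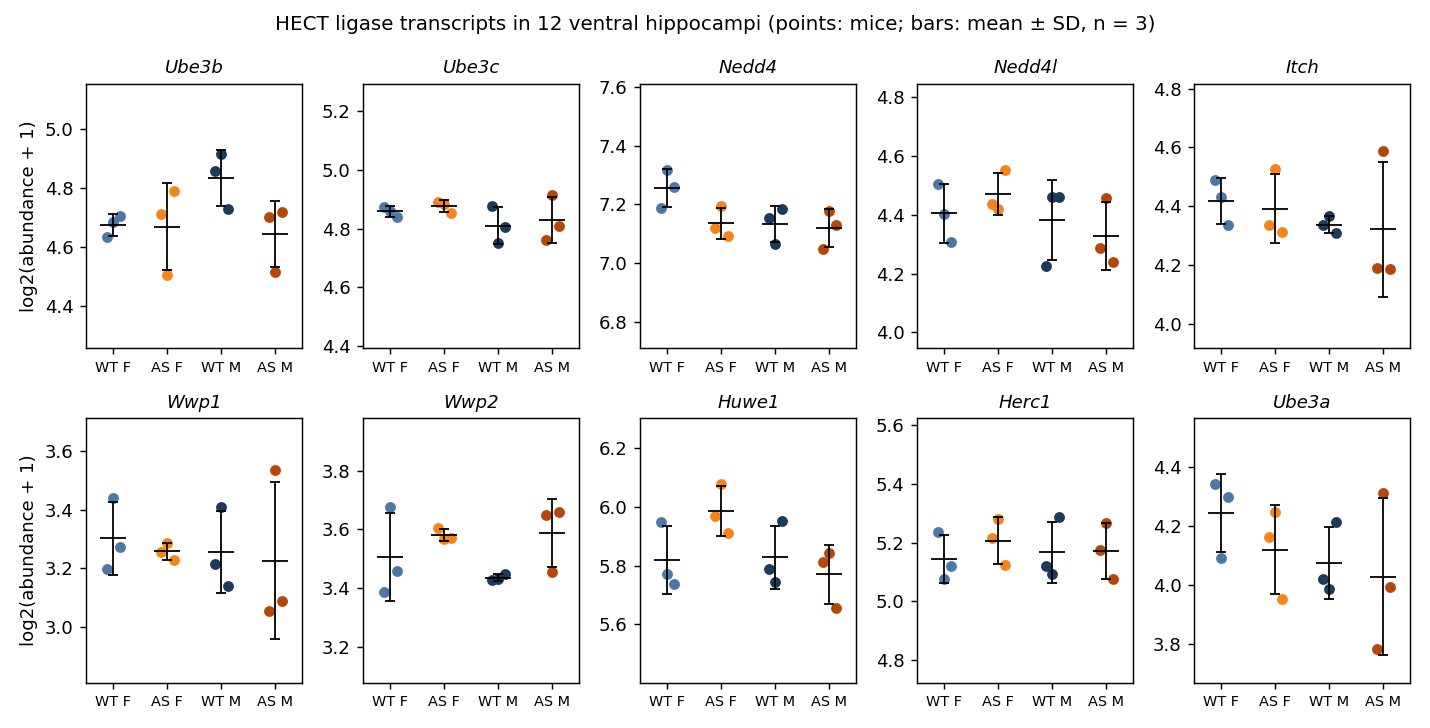
Level of each ligase and of Ube3a on the log2(abundance + 1) scale in the 4 groups, with points for mice and bars for the mean ± SD (n = 3); every panel spans the same height. WT and AS points overlap in females for every gene and in males for all but Ube3b and Wwp2.

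Among the UBE3-type ligases, Ube3b had the lowest unadjusted p of the males. UBE3B is a calmodulin-binding ligase whose loss in people causes a syndrome with intellectual disability. In males it was 4.86, 4.91 and 4.73 in WT and 4.70, 4.51 and 4.72 in AS libraries. The groups did not overlap, with the highest AS value just under the lowest WT value, a pattern seen in the same direction in 5.18% of all genes. The difference was -0.19 ± 0.09 (SE, n = 3 per group, limma, adjusted p = 0.763), and without AS male replicate 2 it was -0.125. In females the values were 4.63, 4.69 and 4.71 in WT and 4.71, 4.50 and 4.79 in AS libraries, where AS values lay on both sides of WT and the difference was -0.01 ± 0.09. The interaction of genotype and sex did not pass (-0.18 ± 0.12, limma, adjusted p = 0.987). Ube3c lay between 4.75 and 4.92 in all 12 libraries and differed by 0.02 ± 0.06 in each sex. Its interval over both sexes was -4.94% to 7.9%.

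In the NEDD4 family, Wwp2 and Nedd4 showed the larger differences, and neither passed. WWP2 and WWP1 are close relatives within the family. Wwp2 in males was 3.43, 3.43 and 3.45 in WT and 3.65, 3.46 and 3.66 in AS libraries, so all AS values were above all WT values, as in 6.02% of genes. The difference was 0.15 ± 0.09 (limma, adjusted p = 0.801). In females Wwp2 was 3.39, 3.68 and 3.46 in WT and 3.60, 3.57 and 3.57 in AS libraries, where the groups overlapped, and over both sexes the difference was 0.11 ± 0.06 (limma, adjusted p = 0.914). Without the 4 libraries highest in choroid plexus markers that value was 0.17 (limma, adjusted p = 0.682).

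Nedd4 was highest in WT females, at 7.19, 7.32 and 7.26, against 7.12, 7.19 and 7.09 in AS females, 7.15, 7.06 and 7.18 in WT males and 7.05, 7.18 and 7.13 in AS males. The female genotypes overlapped only where AS replicate 2 reached the lowest WT value (-0.12 ± 0.06, limma, adjusted p = 1.00), and WT males lay wholly below WT females (-0.12 ± 0.06, limma, adjusted p = 0.6665), as 6.62% of genes did. These differences share the WT females and are not independent of each other. In males the genotype difference was -0.01 ± 0.06.

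Nedd4l, Itch and Wwp1 showed small genotype differences with wide intervals. NEDD4L restrains sodium channels at the cell surface, and ITCH acts on JUNB and is named for the itching of mice that lack it. Over both sexes the log2 differences were 0.01 ± 0.06 for Nedd4l, -0.02 ± 0.07 for Itch and -0.04 ± 0.09 for Wwp1. AS male replicate 2 was the highest library of the series for Itch (4.59, against 4.19 to 4.53 in the other 11) and for Wwp1 (3.53, against 3.06 to 3.44).

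The giant ligases gave the largest single difference in females. HUWE1 targets MCL1, p53 and N-MYC and is mutated in X-linked intellectual disability. Huwe1 was 5.95, 5.77 and 5.74 in WT females, 5.97, 6.08 and 5.91 in AS females, 5.79, 5.74 and 5.95 in WT males and 5.81, 5.84 and 5.66 in AS males. AS females had the highest group mean, and replicate 3 of the WT males reached into their range. Of the WT females only replicate 1, where Xist was low, did so. The female difference was 0.17 ± 0.08 (limma, adjusted p = 1.00), and 0.23 without that library (limma, adjusted p = 1.00). In males it was -0.06 ± 0.08, and the interaction did not pass (-0.22 ± 0.12, limma, adjusted p = 0.987). Herc1, whose mutation in the tambaleante mouse causes loss of Purkinje cells, differed by 0.06 ± 0.08 in females and 0.00 ± 0.08 in males.

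**Figure D3:**
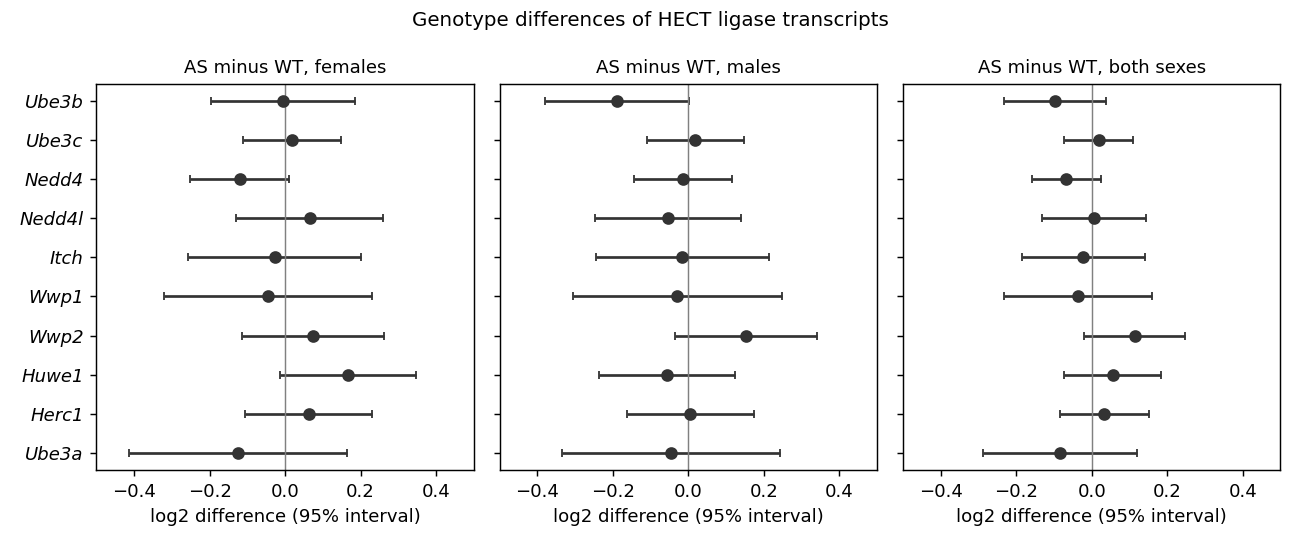
Log2 differences between AS and WT mice in females, in males and over both sexes (points) with 95% intervals from limma (bars). Every interval for the 9 ligases and Ube3a includes 0, and over both sexes Wwp2 at 0.11 is the highest and Ube3b at -0.10 the lowest.

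Sex differences did not pass for any member either. Averaged over genotypes, 8 of 9 members were lower in males, with a median log2 difference of -0.05 and a range of -0.10 to 0.07, where 52.3% of all genes were higher in males. All 17 choroid plexus markers were also lower in males, with a median log2 difference of -1.54 over both genotypes and -2.27 in WT mice. In WT mice 14 of 17 had an unadjusted p under 0.05 (limma), against 7.7% of all genes, and 0 were called. Their mean was 4.30 and 5.26 in WT female replicates 1 and 2 and 5.04 in AS female replicate 2. It was 1.40 to 1.70 in the other females and 1.21 to 3.02 in males. Once that marker mean was a covariate, Itch (0.035), Wwp1 (0.042) and Herc1 (0.032) turned to higher in males and Ube3b (-0.014) to lower. The limma threshold called 0.0361% of all genes, 5 in number, and 0 members (0 at an unadjusted p under 0.05, against 6.91% of all genes), and no member separated the sexes without overlap, as 0.296% of genes did (0.224% higher and 0.0722% lower in males). The X-linked Huwe1 had the difference furthest from 0, -0.10 ± 0.06 (limma, adjusted p = 0.768). In WT mice 3 of 9 members were higher in males, as 51.2% of genes were, with 0 called against 0.0289% of genes, 0 at an unadjusted p under 0.05 against 7.7%, and 2 without overlap against 14.7%. In AS mice 1 of 9 was higher in males, as 51.5% of genes were, with 0 called against 0.0361%, 1 at an unadjusted p under 0.05 against 3.63%, and 1 without overlap against 8.47% (4.99% higher). That member was Huwe1. It was lower in all AS males than in all AS females, by -0.22 ± 0.08 (limma, unadjusted p = 0.0235, adjusted p = 1.00), as 3.49% of genes were, and differed by 0.01 ± 0.08 between WT sexes. Ube3b in WT males lay above all WT females (0.16 ± 0.09, limma, adjusted p = 0.684), as 8.12% of genes did.

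Mice of the same group also differed from each other in these transcripts, and there the members did not vary independently. Each value was taken as its deviation from its group mean, and Pearson's r over the 12 libraries was computed for the 45 pairs of members and Ube3a as a description. Huwe1 and Herc1 had r = 0.947 (Spearman's rho 0.902), or 0.917 without the 2 libraries furthest out in Huwe1. Among 13857 other genes, Herc1 ranked 3 by r to Huwe1 and Huwe1 ranked 5 by r to Herc1. Ube3b ran the other way, with r = -0.857 to Herc1 (rho -0.797), -0.795 to Huwe1 (rho -0.755) and -0.795 to Ube3a (rho -0.769). Itch and Wwp1 had r = 0.753, which was 0.508 without the 2 libraries furthest out. Wwp1 ranked 430 by r to Itch, and Itch ranked 316 by r to Wwp1.

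**Figure D4:**
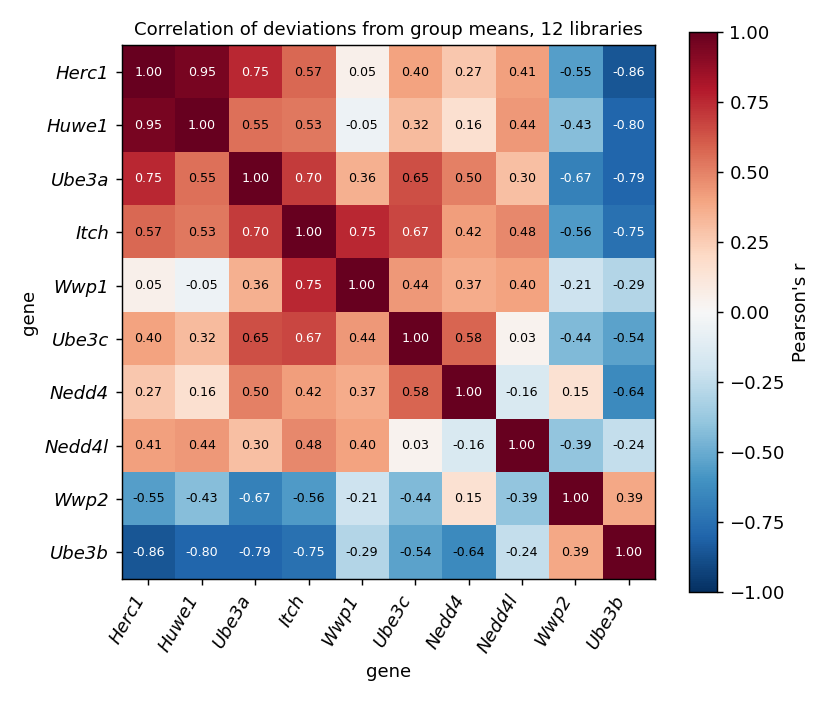
Pearson's r between the 9 ligases and Ube3a over 12 libraries, each value taken as its deviation from the group mean, from blue (negative) to red (positive). Herc1 and Huwe1 form the most similar pair (0.947), and Ube3b is negative to every gene but Wwp2.

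Particular libraries stood out in this pattern. Herc1, Huwe1 and Ube3a were each above their group mean, and Ube3b below it, in replicate 1 of the WT females, replicate 2 of the AS females, replicate 3 of the WT males and replicate 2 of the AS males. These 4 libraries lay apart from the other 8, a split described after the values were plotted. Over the other 8 alone, r was 0.779 for Huwe1 with Herc1, but -0.426 for Ube3b with Herc1, -0.282 for Ube3b with Huwe1 and -0.308 for Ube3b with Ube3a. Deviations here were still taken from group means that included the 4. Since the 4 were picked for these same genes, a lower r without them follows in part from the choice. All but the WT male are among the 4 libraries high in choroid plexus markers. Without those 4, and with group means recomputed, r over 8 libraries was 0.971 for Huwe1 with Herc1, -0.935 for Ube3b with Herc1 and -0.746 for Ube3b with Ube3a. It turned from 0.697 to -0.376 for Itch with Ube3a and from -0.673 to 0.912 for Wwp2 with Ube3a. These r are not comparable with the -0.426 above, which kept the earlier group means. WT females are then a single mouse, equal to its own group mean, and the libraries left in each AS group mirror each other. Few independent values remain, so high r and changed signs arise easily. The libraries in which Herc1 was up and Ube3b down had the highest trend of deviations with annotated transcript length, a Spearman rho over 12671 genes of 0.116, 0.039, 0.204 and 0.221 in that order, against -0.192 to 0.035 in the other 8. That trend had r = 0.762 to Herc1, 0.716 to Huwe1, 0.656 to Ube3a, 0.832 to Nedd4l, 0.672 to Itch, -0.676 to Ube3b and -0.532 to Wwp2. For Ube3c, Nedd4 and Wwp1 it was 0.345, 0.262 and 0.381, and the median size of r over all genes was 0.345. In the transcript with the longest coding sequence, the lengths are 15.15 kb for Herc1, 14.58 for Huwe1 and 9.86 for Ube3a. They are 3.03 kb for Nedd4l, 5.31 for Itch, 5.19 for Ube3b and 4.31 for Wwp2. For Ube3c, Nedd4 and Wwp1 they are 5.05, 5.5 and 6.44 kb. The isoforms expressed here may have other lengths. The part of the trend in the result was not tested.

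**Figure D5:**
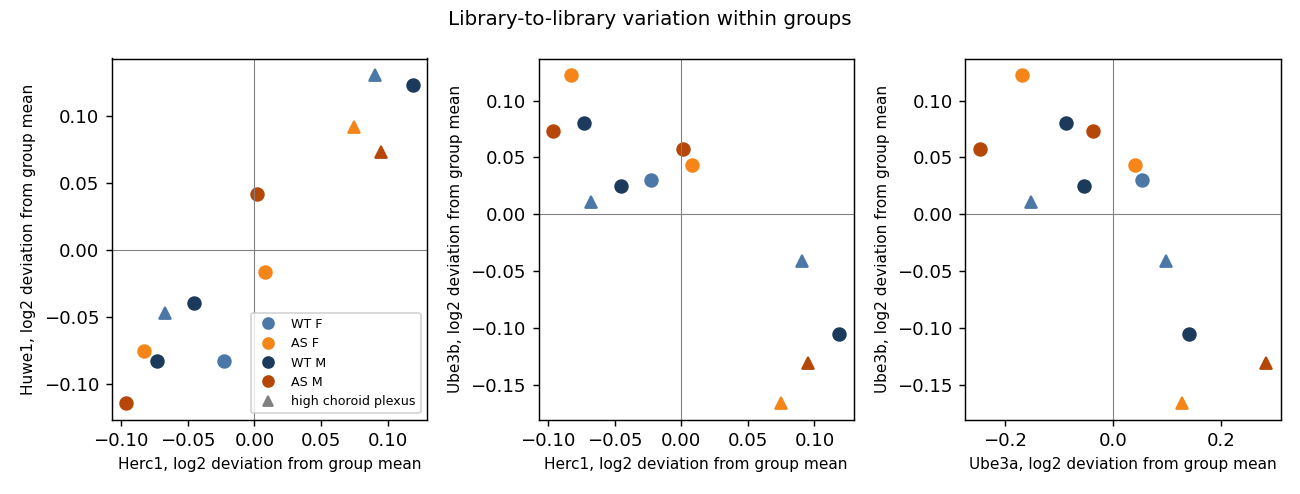
Log2 deviation of each library from its group mean for Huwe1 against Herc1, Ube3b against Herc1 and Ube3b against Ube3a, with triangles for the 4 libraries high in choroid plexus markers. Huwe1 is higher where Herc1 is higher (r = 0.947). The 4 libraries in which Ube3b is lowest are those highest in Herc1. For this pair r is -0.857 over all 12 and -0.426 over the other 8, from the same deviations.

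Whether any ligase moved against Ube3a between mice of the same group was tested with limma, using the Ube3a level as a term beside the 4 group means. The slope is the log2 change of a transcript per log2 unit of Ube3a. No gene of 13857 was called at an adjusted p under 0.05 (0% of genes), while 15% had an unadjusted p under 0.05. Among the members 3 of 9 did: Ube3b with a slope of -0.47 ± 0.16 (limma, adjusted p = 0.252), Itch with 0.53 ± 0.20 (limma, adjusted p = 0.28) and Herc1 with 0.38 ± 0.15 (limma, adjusted p = 0.279). Ube3b and Wwp2 (-0.36 ± 0.18) were the members with negative slopes, and the other 7 were positive, as were 46.9% of genes. Leaving out 1 library gave 0 to 3 members at that unadjusted threshold, with 0 without AS male replicate 2, and without the 4 libraries high in choroid plexus markers it was also 0. The Itch slope was 0.16 without AS male replicate 2, the library highest in Itch, and -0.06 without the 4 libraries high in choroid plexus markers. Without those 4 the slopes of Nedd4l (-0.058) and Wwp1 (-0.283) were also negative and that of Wwp2 was positive (0.10). The Ube3b slope stayed between -0.61 and -0.39 whichever library was left out.

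The genes most like each member, by r of the same deviations over 12 libraries among 9813 genes with a mean abundance of at least 5, were as follows. Ube3b was most like AI854703 (0.97) and the kinase gene Stk25 (0.96), and Ube3c was most like the splicing factor gene Srsf1 (0.949) and Pogz (0.93). For Nedd4 they were Cd55 (0.948) and Ufd1 (0.929), and for Nedd4l they were Prpf18 (0.936) and Aak1 (0.928). Itch was most like Tram1 (0.957) and Sfpq (0.944), and Wwp1 most like the sodium channel gene Scn1a (0.949) and Nsmaf (0.942). Wwp2 was most like Mkrn1 (0.95). Huwe1 was most like the tankyrase gene Tnks (0.964) and Pcnx4 (0.949), and Herc1 most like Phf14 and Prkdc (0.952 for both). These are the highest of many values over few libraries.

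All 17 other HECT genes were tested. In the genotype comparisons 0 were called (0% of all genes) and 0 had an unadjusted p under 0.05 with limma, against 3.16% of all genes in females, 6.42% in males and 5.35% over both sexes. Over both sexes 6 were higher and 11 lower in AS mice, where 52.7% of all genes were higher, with a median log2 difference of -0.02. In each sex 2 were wholly lower in AS mice, Smurf2 and Hectd3 in females and Hecw2 and Herc2 in males, against 4.02% and 5.18% of all genes. Those with the smallest p were Hectd3 at -0.13 ± 0.06 and G2e3 at 0.14 ± 0.08 over both sexes (limma, adjusted p = 0.914 and 0.92), Smurf2 at -0.11 ± 0.08 and G2e3 at 0.16 ± 0.12 in females, and Hecw2 at -0.26 ± 0.12 and Hectd3 at -0.17 ± 0.09 in males. Hecw2 in females was at 0.04 ± 0.12. Without WT male replicate 2 the male values were -0.129 for Hecw2 and -0.084 for Hectd3. Smurf2 in females was -0.071 without AS female replicate 3, and G2e3 was 0.247 in females without AS female replicate 1 and 0.095 over both sexes without AS male replicate 2.

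Enzymes upstream of the ligases did not pass either. Of 17 E1 and E2 genes, 12 were higher and 5 lower in AS mice over both sexes, where 52.7% of all genes were higher, with a median log2 difference of 0.02. With limma 0 were called (0% of all genes), and 1 had an unadjusted p under 0.05, against 5.35% of all genes. That gene was Ube2l3, which encodes UBCH7, the E2 enzyme that works with UBE3A, at 0.09 ± 0.04 (limma, adjusted p = 0.913), followed by Ube2h at -0.08 ± 0.04. In males Ube2g2 was at -0.18 ± 0.07 and Ube2k at 0.12 ± 0.05, and in females Ube2e1 was at -0.17 ± 0.08 and Ube2r2 at -0.16 ± 0.10. Ube2r2 in males was at 0.13 ± 0.10, and its female value was -0.054 without AS female replicate 1.

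Among 17 adaptors and regulators of NEDD4-family ligases, Wbp1 separated the genotypes without passing the test. WBP1 carries PY motifs that bind WW domains. Wbp1 was 4.54, 4.46 and 4.38 in WT females and 4.13, 4.21 and 4.34 in AS females. In males it was 4.42, 4.45 and 4.51 in WT and 4.36, 3.97 and 4.34 in AS libraries. All 6 AS libraries lay below all 6 WT libraries, as in 0.13% of genes tested (0.231% were wholly higher), and the difference over both sexes was -0.23 ± 0.07 (SE, n = 6 per genotype, limma, unadjusted p = 0.00727, adjusted p = 0.759). It was -0.17 without AS male replicate 2 and -0.13 without the 4 libraries high in choroid plexus markers. In males alone it was -0.106 without AS male replicate 2, against -0.233 with it. Over both sexes 9 of the 17 genes were higher and 8 lower, where 52.7% of all genes were higher, with 0 called (0% of all genes) and 1, Wbp1, at an unadjusted p under 0.05, against 5.35%. Sgk1, a kinase that inhibits NEDD4L, was at -0.54 ± 0.36 in females and -0.49 ± 0.25 over both sexes, and N4bp1, an inhibitor of ITCH, was at 0.14 ± 0.07 in males. Sgk1 in females was -0.345 without WT female replicate 2, and within 0.01 of that without AS female replicate 3, and N4bp1 in males was 0.081 without WT male replicate 2.

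Transcripts of proteins reported as substrates of the members were tested for 27 of 30 listed genes. Over both sexes 14 were higher and 13 lower in AS mice, where 52.7% of all genes were higher, with a median log2 difference of 0.01, 0 called, and 1 higher and 2 lower at an unadjusted p under 0.05 (limma), against 2.77% and 2.58% of all genes. Smad2, a transducer of TGF-beta signals, was at 0.19 ± 0.07 and the potassium channel gene Kcnq5 at -0.15 ± 0.06 (limma, adjusted p = 0.893 for both). In females the sodium channel gene Scn8a was at 0.17 ± 0.07 and Kcnq5 at -0.17 ± 0.08, and in males the Wnt pathway gene Dvl1 was at -0.26 ± 0.11 and Smad2 at 0.22 ± 0.09. In the other sex Scn8a and Dvl1 had the opposite sign. Scn8a was at -0.12 ± 0.07 in males, wholly lower in AS mice, and Dvl1 at 0.12 ± 0.11 in females, wholly higher. Of the 27 genes, 4 were wholly higher and 1 wholly lower in AS females, against 4.99% and 4.02% of all genes. In males 3 were wholly higher and 1 wholly lower, against 6.02% and 5.18%. Their interactions of genotype and sex did not pass (limma, unadjusted p = 0.0137 and 0.0299, adjusted p = 0.987 for both). For the interaction 0 of the 27 were called and 3 had an unadjusted p under 0.05, against 3.77% of all genes. Without single libraries, Dvl1 in males was -0.153 (AS male replicate 2), Smad2 in males 0.14 (WT male replicate 2) and Kcnq5 in females -0.095 (WT female replicate 1).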

How the data were processed

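Paired-end reads of 100 bases from polyadenylated RNA were processed with Trimmomatic, Bowtie2 and RSEM on GRCm38 (mm10), per the submitters' processing notes, with no versions. The table the authors deposited was read as the natural log of an RSEM abundance plus 1. Its abundance unit (TPM or FPKM), log base, normalization and gene filter are not given in the sources used here. Back-transformed totals are 547558 to 587587 per library with base e. Of the first library's values between 2 and 5, 100% occur in all 12 columns, as after quantile normalization. Read in base 2, differences shrink by a factor of 0.693. Depth is unknown, so no counting interval is given.

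Values were divided by the natural log of 2, and 13858 genes averaging an abundance of at least 1 were kept, with 93 set aside. Symbols came from GENCODE M21 for 13735 identifiers. limma 3.58.1 (R 4.3.3) was fitted to the group means with trended variances (8 residual degrees of freedom), checked on simulated data. Adjusted p-values cover all genes tested, and intervals are at 95%. Members, lists and alternatives were chosen with earlier results of these data known. Each list names the 2 genes with the smallest p per genotype comparison where none was called. The libraries are separate mice, and replicate numbers follow accession order. Nedd4l, Itch and Wwp1 had no promoter entry used here. For Wwp2, 1 of the 2 most similar genes is not reported here.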

Additional observations from a re-analysis of the deposited data

How the results depend on the processing

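The count of 0 ligases called held under all 23 alternatives in the comparisons each applied to, and the lowest adjusted p of any member was 0.195. Of 1620 recomputed member values 1506 kept their direction and their side of the threshold, and 114 changed sign, none of them called. Slopes aside, the reported values of those that changed sign lay within 0.081 of 0 on the log2 scale, so the direction of these small differences is not settled. Causes were not tested.

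With each library's choroid plexus mean as a covariate, AS minus WT turned to 0.044 for Itch and 0.009 for Wwp1 in females and -0.006 for Herc1 in males, and the interaction to -0.020 for Ube3c, -0.091 for Itch and -0.061 for Wwp1. Male minus female turned to 0.019 for Nedd4l, 0.080 for Itch and 0.073 for Wwp1 in WT, to 0.002 for Nedd4 and 0.012 for Wwp1 in AS, and over both genotypes to -0.014 for Ube3b, 0.035 for Itch, 0.042 for Wwp1 and 0.032 for Herc1. With library quality weights, AS minus WT turned to 0.020 for Ube3b in females, -0.020 for Ube3c and -0.040 for Herc1 in males, and -0.001 for Ube3c and -0.017 for Nedd4l over both sexes. The interaction turned to -0.038 for Ube3c, -0.052 for Itch, -0.074 for Wwp1 and -0.016 for Ube3a, and male minus female in AS mice to 0.001 for Ube3b.

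Leaving out the 4 libraries with the most choroid plexus signal, AS minus WT turned to 0.047 for Ube3b in females and to -0.025 for Ube3c and -0.043 for Herc1 in males, and the interaction to -0.059 for Ube3c, -0.137 for Itch and -0.154 for Wwp1. Male minus female turned to 0.075 for Nedd4l and 0.002 for Itch in WT, and to 0.022 for Wwp2 and 0.001 for Herc1 over both genotypes. The slope on Ube3a turned to -0.058 for Nedd4l, -0.060 for Itch, -0.283 for Wwp1 and 0.10 for Wwp2. This leaves 1 WT female, assumed to vary like the mice of the other groups. Genes called over the whole table were then 5 in females, 1 in males, 2 over both sexes and 2 for the interaction (0 in each with all libraries), 7 between WT sexes (4) and 12 between sexes over both genotypes (5).

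With a mean abundance of at least 5 the sex comparisons called 2 genes in WT, 3 in AS and 3 over both genotypes. In AS mice they called 2 with an added constant of 0.1 and 3 with only the groups compared, against 5. Members at an unadjusted p under 0.05 in males were 1 with an added constant of 5, a mean abundance of at least 5, repeated quantile normalization, the covariate or the weights, and 2 without the 4 libraries, against 0. In females and for the interaction they were 1 with the covariate or the weights, and over both sexes 1 with the weights or without the 4 libraries, against 0 in each. Between AS sexes they were 2 with the weights and 0 without the 4 libraries, against 1, and for the slope 0 without the 4 libraries, against 3.

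Leaving out 1 library gave 0 to 1 genes called in females, in males and for the interaction, 0 to 2 over both sexes, 4 to 8 between WT sexes, 2 to 8 between AS sexes and 4 to 8 between sexes over both genotypes. It gave 0 to 2 members at an unadjusted p under 0.05 in females, 0 to 1 for the interaction, in males, over both sexes, between WT sexes and between sexes over both genotypes, and 0 to 3 between AS sexes and for the slope.

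The values that changed sign on leaving out 1 library had these ranges. AS minus WT in females ran from -0.067 to 0.077 for Ube3b, -0.095 to 0.011 for Itch and -0.098 to 0.023 for Wwp1. In males it ran from -0.025 to 0.051 for Ube3c, -0.049 to 0.021 for Nedd4, -0.149 to 0.051 for Itch, -0.184 to 0.056 for Wwp1, -0.098 to 0.005 for Huwe1, -0.043 to 0.064 for Herc1 and -0.188 to 0.078 for Ube3a. Over both sexes it ran from -0.003 to 0.035 for Ube3c, -0.033 to 0.031 for Nedd4l, -0.089 to 0.012 for Itch and -0.114 to 0.005 for Wwp1. The interaction ran from -0.043 to 0.033 for Ube3c, -0.122 to 0.079 for Itch, -0.139 to 0.101 for Wwp1, -0.006 to 0.145 for Wwp2, -0.105 to 0.002 for Herc1 and -0.064 to 0.201 for Ube3a. Male minus female in WT ran from -0.072 to 0.055 for Nedd4l, -0.125 to 0.021 for Wwp1, -0.132 to 0.013 for Wwp2, -0.053 to 0.074 for Huwe1 and -0.036 to 0.068 for Herc1. In AS it ran from -0.108 to 0.040 for Ube3b, -0.045 to 0.019 for Nedd4, -0.186 to 0.053 for Wwp1, -0.029 to 0.073 for Wwp2, -0.082 to 0.013 for Herc1 and -0.235 to 0.031 for Ube3a. Over both genotypes it ran from -0.117 to 0.003 for Wwp1, -0.062 to 0.010 for Wwp2 and -0.036 to 0.018 for Herc1. The slope ran from -0.067 to 0.317 for Nedd4l and -0.357 to 0.518 for Wwp1.

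No paired analysis was possible because the labels give no replicate numbers that pair mice across groups. The fit of only the groups compared applies to the comparisons within a sex or a genotype and was not run for the slope.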
